A study of Homo sapiens with 16 samples.

Results

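The replication-dependent histone genes were the genes whose names in both deposited tables were H1-1 to H1-6 or carried the prefix H2AC, H2BC, H3C or H4C with a number. They were 66 of the 61906 genes listed, namely 6 linker histone H1 genes, 16 H2A, 17 H2B, 13 H3 and 14 H4 genes. Of the 61 with a RefSeq promoter entry, 50 lie on chromosome 6 and 11 on chromosome 1.

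Histone proteins package DNA into nucleosomes, with H2A, H2B, H3 and H4 forming the core and H1 binding the linker DNA. The replication-dependent genes are transcribed mainly in S phase, when new chromatin needs histones. Most of their mRNAs lack introns and end at a stem-loop that is bound by SLBP and cut with the U7 small nuclear ribonucleoprotein, in place of a poly(A) tail. Some of these genes also make longer, polyadenylated mRNAs, which are known from cells that have stopped dividing or differentiate. A method that captures RNA by its poly(A) tail recovers mainly the second kind.

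RNA came from HEK-293T cells, a line of human embryonic kidney origin that carries the SV40 large T antigen, and from HT-1080 cells, a human fibrosarcoma line. Each line was transfected for 48 h with 20 nM of an siRNA against HNRNPH1, an RNA-binding protein of the hnRNP H family and a regulator of splicing (siHNRNPH1), or with the control siRNA siNegative. Short-read RNA-seq had 3 replicates in each of the 4 groups, 12 libraries in all. For IsoSeq long-read sequencing, which yields full-length transcript models, there was 1 pool of replicates per group. The control groups received the same transfection, no untransfected cells were analysed here, and each line and each siRNA label is a single one. Whether the libraries were made by poly(A) selection is not given in the sources used here.

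The HEK-293T libraries held 107745652 to 121026191 expected counts and the HT-1080 libraries 27304374 to 32653151. HNRNPH1 itself fell by 1.76 on the log2 scale in HEK-293T (edgeR quasi-likelihood test, Benjamini-Hochberg adjusted p = 0.00939), and the fall in HT-1080 was 1.49 (log2 fold change -1.49, adjusted p = 6.76e-09). Of the 10 HT-1080 markers, all 9 that could be tested were higher in that line, THY1 being near 0, and 4 of the 6 HEK-293T markers that could be tested were higher in HEK-293T, with NEFL and CDH2 the other way and LIN28A at 0. The first siHNRNPH1 library of HEK-293T stood apart from its group. In it, 30 other protein-coding genes spanning under 1000 bases lay 0.86 above the siNegative mean (median, log2 of CPM plus 0.1, where CPM is the count scaled to a library total of 1000000), against -0.02 and -0.28 in libraries 2 and 3. Its 2857 genes spanning 100000 bases or more lay at -0.61, against 0.16 and 0.17. The histone genes that could be tested there had medians of 0.69, 0.74 and 0.81 in the 3 libraries, so their shift was as large without the first library, while their summed level was not. The main results in HEK-293T are therefore given with and without it.

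**Figure D1:**
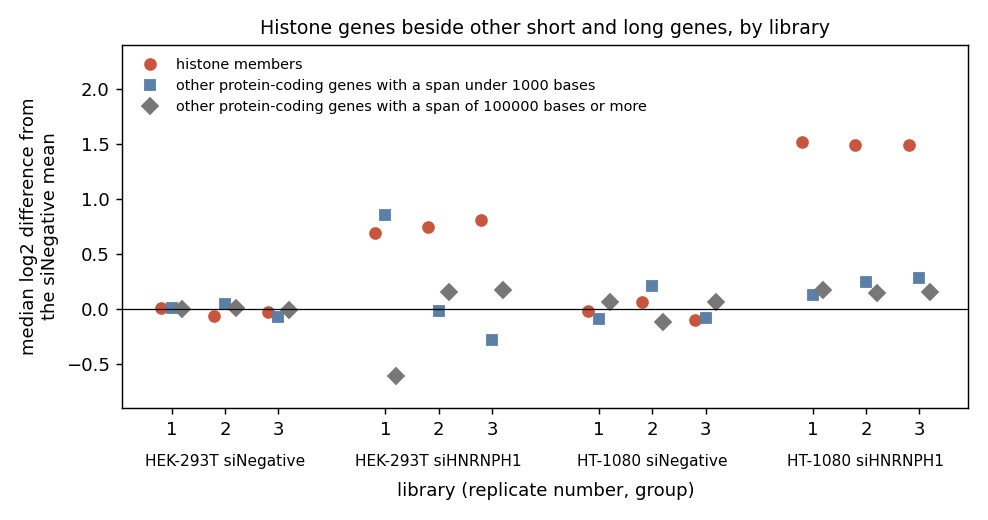
Median log2 difference in CPM (plus 0.1) from the siNegative mean of the same line, for each of the 12 libraries, in tested histone genes (circles), other protein-coding genes spanning under 1000 bases (squares) and those spanning 100000 bases or more (diamonds). The first siHNRNPH1 library of HEK-293T has short genes at 0.86 and long genes at -0.61, while the histone genes sit between 0.69 and 0.81 in all 3 siHNRNPH1 libraries of that line and between 1.49 and 1.52 in HT-1080.

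The control of these genes is written in part in their promoters. The sequences below show an element frequent in H2A and in H2B, the family with the most counts, and one that marks H1. The octamer ATTTGCAT, the element bound by the POU factor OCT1, was searched on both strands of 300-base RefSeq promoter windows (GRCh38.p14, 250 bases before to 50 after the start). It was present in 14 of 17 H2B and 11 of 15 H2A promoters, in 1 of 11 H3 promoters and in no H1 or H4 promoter of the 61 found, against 1.80% of all 27305 promoters. These are not all separate sites. Most H2A matches are also the match of a neighbouring H2B gene, and the H3 match, in H3C4, is that of H2AC7 and H2BC7. The windows are 30 bases on the strand of the gene, lie upstream of the transcription start, and have the motif in capitals.
H2BC12 (chr6:27146886-27146915, minus strand): ctcttcaccttATTTGCATgagaggtccta
H2BC11 (chr6:27132824-27132853, minus strand): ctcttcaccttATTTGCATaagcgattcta
H2BC21 (chr1:149886710-149886739, minus strand): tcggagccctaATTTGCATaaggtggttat
H2BC4 (chr6:26124031-26124060, minus strand): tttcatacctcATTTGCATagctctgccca
H2AC6 (chr6:26124031-26124060, plus strand): tgggcagagctATGCAAATgaggtatgaaa
H2BC10 (chr6:26272875-26272904, plus strand): cagccagcctcATTTGCATatacacgaggt
H1-2 (chr6:26056571-26056600, minus strand): tgaggtggaacAAACACAacttgggagcag
H1-4 (chr6:26156201-26156230, plus strand): tgaggtgtaacAAACACAactcgggatccg

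In H2BC12, H2BC11 and H2BC21 the octamer ended 38, 39 and 38 bases before the start, and in H2BC4 115 bases before it. H2BC4 and H2AC6 are neighbours read in opposite directions, and the same octamer is the match of both, so that the H2AC6 line shows its reverse complement. H2BC10 is shown because it holds the octamer yet had no count in any of the 12 libraries. The element AAACACA of H1 promoters was found, on either strand, in 6 of 6 H1 promoters and in 5.76% of all promoters, CCAAT in 52 of 61 histone promoters against 35.7% of all, and TATAAA in 41 of 61 against 12%. These matches overlap in the same windows and are a description of letters, not of binding.

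The histone genes took up a very small part of each library. With siNegative, all 66 together held 32.3, 30.8 and 29.6 CPM in the 3 HEK-293T libraries (30.9 ± 1.36, SD, n = 3) and 78.6, 86.5 and 75.3 in HT-1080 (80.1 ± 5.77). With siHNRNPH1 they held 109, 80.8 and 73.5 in HEK-293T (87.8 ± 18.8) and 216, 235 and 230.0 in HT-1080 (227 ± 9.92). Each siHNRNPH1 library lay above each siNegative library of its line, by a ratio of means of 2.84 in HEK-293T, 2.50 without its first siHNRNPH1 library, and 2.83 in HT-1080. In bulk RNA, a change in how many cells make a transcript and a change in its amount per cell cannot be told apart.

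Reads were concentrated in few members. Only 13 genes in HEK-293T and 13 in HT-1080 had a mean count of 50 or more, 12 of them in both, and 35 stayed under 10 in both lines. At the low end, 10 genes, among them H1-5, H2BC10 and H4C6, had no count in any library. By line, 12 had none in HEK-293T and 21 none in HT-1080, where the libraries were less deep. A count of 50, or no count, therefore does not mark the same level in both lines. H2BC12 alone held 42.2% of all HEK-293T histone counts, and 29.6% of those in HT-1080. The 5 leading genes held 72.9% in HEK-293T (H2BC12, H4C15, H1-2, H4C14 and H3C6) and 75.2% in HT-1080 (H2BC12, H1-2, H2AC6, H2BC21 and H2AC18). These shares are of reads, not divided by transcript length, so they do not rank the genes by molecules.

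By family, H2B held the most counts in every library. In HEK-293T its mean was 15.2 ± 1.00 CPM in controls and 52.1 ± 11.8 after depletion, against 42.5 ± 1.40 and 111 ± 4.71 in HT-1080. H2BC12 made up most of this, with means of 10.9 and 39.3 CPM in HEK-293T and 31.0 and 60.2 in HT-1080. The rank of H2B therefore rested largely on that gene. The H2A genes held 2.24 ± 0.217 and then 6.38 ± 1.91 in HEK-293T, against 14.3 ± 1.16 and 58.4 ± 3.65 in HT-1080. The H1 genes went from 2.87 ± 0.101 to 7.48 ± 3.91 in HEK-293T, where the first siHNRNPH1 library was at 12 and the others at 4.96 and 5.50, and from 13.7 ± 2.01 to 36.6 ± 2.72 in HT-1080. H3 moved least in ratio in both lines, from 3.39 ± 0.326 to 6.14 ± 0.0636 and from 2.76 ± 0.515 to 4.50 ± 0.479. For H4 the levels were 7.17 ± 0.199 and 15.8 ± 1.41 in HEK-293T, and 6.89 ± 1.23 and 16.1 ± 0.544 in HT-1080.

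**Figure D2:**
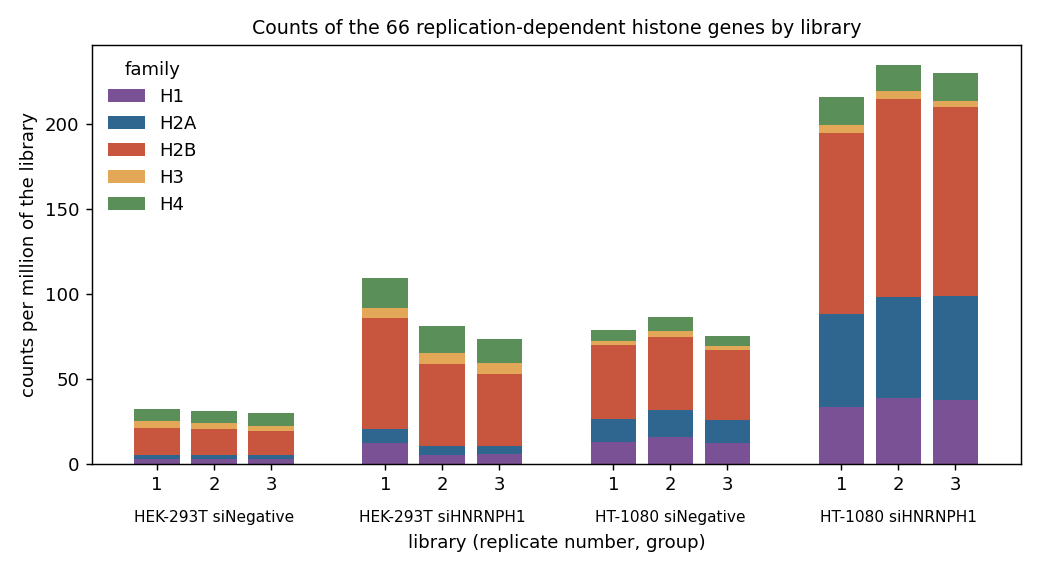
Summed CPM of the 66 histone genes in each of the 12 short-read libraries, stacked by family, with the replicate number and group under each bar. Bars run from 29.6 to 32.3 in HEK-293T with siNegative, 73.5 to 109 with siHNRNPH1, 75.3 to 86.5 in HT-1080 with siNegative and 216 to 235 with siHNRNPH1, and H2B is the largest part of each.

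In HEK-293T, 10 of the 29 histone genes with enough counts to test were higher with siHNRNPH1 and none was lower (edgeR), and the other 37 of 66 did not reach the count filter. The 10 were the H2B genes H2BC5, H2BC11, H2BC12, H2BC13, H2BC15 and H2BC21, the H2A gene H2AC6, the H3 genes H3C6 and H3C10, and H4C8. Across all 19966 genes tested, 5.12% were called higher (10.0% called in all). The histone genes had a median log2 fold change of 0.87, against 0.02 over all genes, and 26 of 29 were above 0. In 14 of 29, every siHNRNPH1 library lay above every siNegative library, as it did in 22.7% of all genes tested, and in none did every siHNRNPH1 library lie below. No histone gene was lower at an unadjusted p under 0.05 either, and DESeq2 called none lower.

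H2BC12 (ENSG00000197903.8), the most counted member, had 11.4, 11.3 and 10.0 CPM with siNegative and 50.8, 36.0 and 31.3 with siHNRNPH1. The groups did not overlap, and the first library was the highest. Its log2 fold change was 1.84 ± 0.23 (SE; edgeR adjusted p = 0.0112) and 1.57 without that library. H2BC15 went from 0.927, 0.912 and 0.719 to 4.0, 3.96 and 3.24, a log2 fold change of 2.11 ± 0.18 (edgeR adjusted p = 0.00604). In this gene the first library did not stand out, and the log2 fold change was 2.02 without it. H2AC6 (ENSG00000180573.10), an H2A gene, went from 1.03, 0.706 and 0.917 to 4.06, 3.34 and 3.14 (1.97 ± 0.22, edgeR adjusted p = 0.00917). Without the first library the log2 fold change of H2AC6 was 1.82. H2BC5 had 1.02, 0.766 and 0.669 CPM in controls and 4.96, 2.63 and 2.58 after depletion, a log2 fold change of 2.04 ± 0.36 that was 1.62 without the first library (edgeR adjusted p = 0.0245 and 4.46e-09).

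Of the other genes called in HEK-293T, H4C8 (ENSG00000158406.6), an H4 gene, went from 0.468, 0.405 and 0.521 CPM to 1.58, 1.12 and 1.23 (log2 fold change 1.47 ± 0.23). H3C6 (ENSG00000274750.3), an H3 gene, had 2.75, 2.32 and 2.33 in controls and 4.04, 4.59 and 4.48 after depletion (0.80 ± 0.13). In H3C10 (ENSG00000278828.2) the values were 0.801, 0.620 and 0.801 against 1.57, 1.29 and 1.36 (0.90 ± 0.19). H2BC21, whose mRNA is annotated as a long form, had 1.12 in each control library and 2.19, 1.92 and 2.13 with siHNRNPH1 (0.87 ± 0.14). These 4 genes had non-overlapping groups, with adjusted p-values from edgeR between 0.0184 and 0.0391. Without the first siHNRNPH1 library their log2 fold changes were 1.28 in H4C8, 0.82 in H3C6, 0.78 in H3C10 and 0.79 in H2BC21.

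The linker gene H1-2 (ENSG00000187837.4) did not pass the test in HEK-293T. It had 2.77, 2.89 and 2.62 CPM with siNegative and 11.9, 4.83 and 5.44 with siHNRNPH1, so that the first library was far above the others while all 3 stayed above the controls. Its log2 fold change of 1.41 ± 0.39 (edgeR adjusted p = 0.0806) became 0.84 without that library (adjusted p = 8.76e-08). H1-4 was at a mean count of 9.50 over the 6 HEK-293T libraries, with a log2 fold change of 0.27 ± 0.48, and H1-6, the third H1 gene by counts, had at most 4 counts in any library of either line and was not tested.

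The count of HEK-293T genes rested on which libraries entered. Without the first siHNRNPH1 library, 15 of 30 tested genes were higher, including all 10 above, and 2 were lower, H2AC12 (-1.92) and H2AC20 (-1.44), against 30.5% higher and 31.3% lower over all genes tested. Without siHNRNPH1 library 2 or 3, 2 and 4 were called, where 245 of 20371 and 639 of 20382 genes were called in all. Without siNegative library 1, 2 or 3 edgeR called 0 of 31, of which 17, 14 and 14 had an unadjusted p under 0.05. Over all genes these fits called 20 of 20483, 0 of 20523 and 0 of 20480. DESeq2 called 14 with all 6 libraries, and 3982 of 19966 genes in all.

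In HT-1080, 14 of the 19 histone genes tested were higher with siHNRNPH1 and none was lower by edgeR, also at an unadjusted p under 0.05, or by DESeq2, while the other 47 did not reach the count filter. They were all 7 H2B genes tested (H2BC4, H2BC5, H2BC6, H2BC11, H2BC12, H2BC15 and H2BC21), the H2A genes H2AC6, H2AC13 and H2AC18, H1-2, H3C10, H4C8 and H4C15. In this line 32.7% of all 16145 genes tested were called higher and 32.6% lower. The median log2 fold change was 1.35 over the histone genes and 0.01 over all genes, and all 19 were above 0. Every siHNRNPH1 library lay above every siNegative library in 14 of 19, against 39.9% of all genes tested.

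The smallest adjusted p-values in HT-1080 were those of H2BC21, H2AC6 and H2BC5. H2AC6 went from 8.06, 9.50 and 8.16 CPM with siNegative to 36.3, 38.7 and 39.9 with siHNRNPH1 (log2 fold change 2.09 ± 0.08, edgeR adjusted p = 2.72e-08). H2BC21 went from 4.83, 4.88 and 4.72 to 19.6, 19.8 and 20.3 (1.98 ± 0.07, edgeR adjusted p = 1.82e-08). H2BC5 went from 2.05, 1.63 and 2.25 to 15.4, 14.5 and 15.3 (2.86 ± 0.11, edgeR adjusted p = 3.16e-08). None of these groups overlapped. H4C8 had 15, 25 and 11 counts in the controls and 110, 139 and 105 after depletion, which is 0.549, 0.830 and 0.363 against 3.77, 4.26 and 3.69 CPM (2.67 ± 0.23).

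H2BC4 was at 1.57, 1.06 and 1.35 CPM in HT-1080 controls and at 5.38, 5.91 and 5.30 with siHNRNPH1 (1.99 ± 0.15). The linker gene H1-2 went from 12.6, 15.6 and 12.1 to 33.2, 38.1 and 36.6 (1.35 ± 0.10, edgeR adjusted p = 1.82e-06). H2BC12 changed less, from 31.6, 32.3 and 28.9 to 55.8, 65.2 and 59.7 (0.89 ± 0.07, edgeR adjusted p = 3.23e-06), and without it the summed ratio of the other 65 genes was 3.39 in HT-1080 and 2.42 in HEK-293T. H3C10 had 2.09, 2.66 and 1.72 against 3.77, 4.38 and 3.58 (0.79 ± 0.17). In all of these genes each siHNRNPH1 library was above each control.

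**Figure D3:**
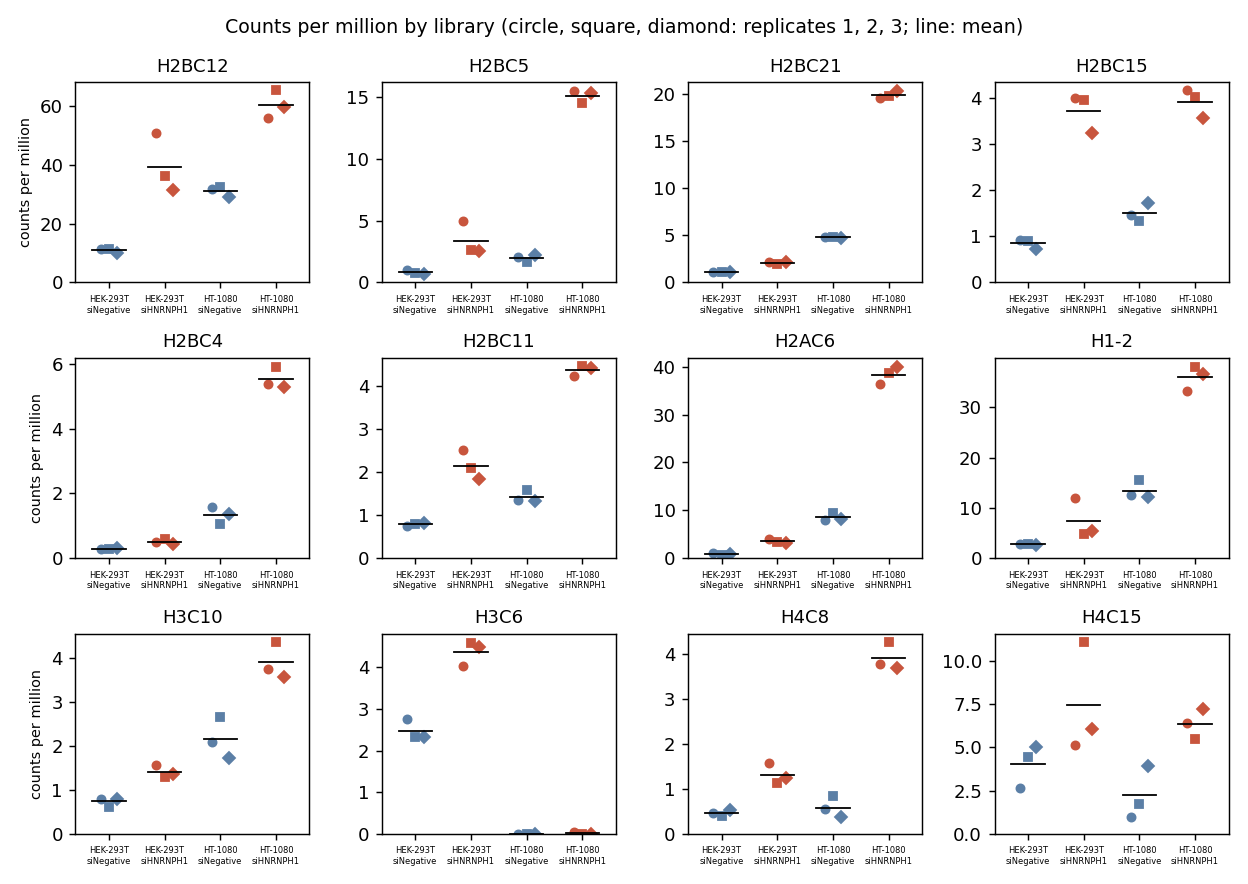
CPM of 12 histone genes in each library, with circles, squares and diamonds for replicates 1, 2 and 3, a line at the group mean, blue for siNegative and red for siHNRNPH1, and an axis from 0 of its own for each gene. The siHNRNPH1 points lie above the siNegative points of the same line in every panel except that of H3C6 in HT-1080, where 5 of 6 libraries had no count. The 12 were picked from the 16 genes called higher in either line, so this separation follows in part from the choice. Full separation held for 14 of the 29 histone genes tested in HEK-293T, against 22.7% of all genes. For HT-1080 it held for 14 of 19, against 39.9%. The first HEK-293T siHNRNPH1 library (circle) is the highest of its group in 9 of the 12 genes, the exceptions being H2BC4, H3C6 and H4C15.

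H2BC15 had 1.46, 1.33 and 1.72 CPM in HT-1080 controls and 4.18, 4.04 and 3.58 with siHNRNPH1 (1.32 ± 0.14). H2BC6, H2BC11 and H2AC13 were also called. H2AC13 had few counts, 15, 11 and 12 in controls against 26, 32 and 19 (0.89 ± 0.28). H2BC6 went from 0.146, 0.166 and 0.264 CPM to 1.75, 1.65 and 2.04 (3.13 ± 0.27), and H2BC11 from 1.36, 1.59 and 1.32 to 4.25, 4.47 and 4.42 (1.55 ± 0.13). H4C15 was called at 1.43 ± 0.34 (edgeR adjusted p = 0.00452), from 27, 52 and 119 counts to 187, 180 and 205. That call was lost without siNegative library 2 (1.27, adjusted p = 0.147 in edgeR) and with no count filter (1.41, adjusted p = 0.102).

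Among the genes called, 8 were higher in each line, namely H2AC6, H2BC5, H2BC11, H2BC12, H2BC15, H2BC21, H3C10 and H4C8, which are 80.0% of the HEK-293T set and 57.1% of the HT-1080 set. H3C6 and H2BC13 were higher in HEK-293T and had too few counts to test in HT-1080. Whether the change was of unequal size in the 2 lines was tested as an interaction over all 12 libraries. In it the log2 fold change was higher in HT-1080 for 2 of 28 histone genes and lower there for 3, against 8.13% and 10.8% of all 21276 genes, so the share of histone genes that differed was near that of all genes.

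The differing genes were 4 of the H2B family and H3C15. H2BC21 and H2BC4 changed more in HT-1080, by 1.04 ± 0.15 and 1.12 ± 0.26 on the log2 scale (edgeR adjusted p = 0.000928 and 0.0125). H2BC12 and H2BC15 changed more in HEK-293T, with differences of -1.02 ± 0.27 and -0.86 ± 0.24 (HT-1080 minus HEK-293T, edgeR adjusted p = 0.0214 and 0.0316). H3C15 had few counts, 5, 5 and 6 in HEK-293T controls and 24, 18 and 8 after depletion, but 6, 7 and 7 and then 0, 4 and 2 in HT-1080, the opposite direction (difference -3.55 ± 0.90, edgeR adjusted p = 0.0189). H2AC6 had a difference of 0.04 ± 0.25 and H3C10 one of -0.19 ± 0.28, and H4C8 missed the threshold at 1.13 ± 0.38 (edgeR adjusted p = 0.0637).

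Without the first siHNRNPH1 library of HEK-293T, the log2 fold change was higher in HT-1080 for 7 of 23 genes and lower there for 2, against 22.7% and 26.4% of all genes tested. H2BC12 and H2BC15 were at -0.73 and -0.75 in that fit, and H2BC21 and H2BC4 at 1.13 and 1.16. H1-2, H2BC5, H2BC6, H4C8 and H2AC20 passed in it, at 0.47, 1.19, 1.96, 1.35 and 1.89. H2AC20 was lower in HEK-293T in that fit (-1.44), while its HT-1080 change did not pass (0.51 ± 0.46). Leaving out siNegative library 3 of HEK-293T left 2 genes called, and leaving out siHNRNPH1 library 1 or 3 of HT-1080 left 3 and 2. The difference of H2BC12 missed the threshold without HEK-293T siNegative library 3 or HT-1080 siNegative library 1 or 2 or siHNRNPH1 library 1 or 3 (-0.97 to -1.02, edgeR adjusted p = 0.0524 to 0.0623). That of H2BC15 missed it without HEK-293T siNegative library 3 or any HT-1080 library except siNegative library 2 (-0.75 to -0.90, edgeR adjusted p = 0.0615 to 0.096), and that of H3C15 without HT-1080 siHNRNPH1 library 3 (-3.60, edgeR adjusted p = 0.0516). With only the largest transcript of each gene, H2BC4 had a difference of 0.62 (edgeR adjusted p = 0.205).

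**Figure D4:**
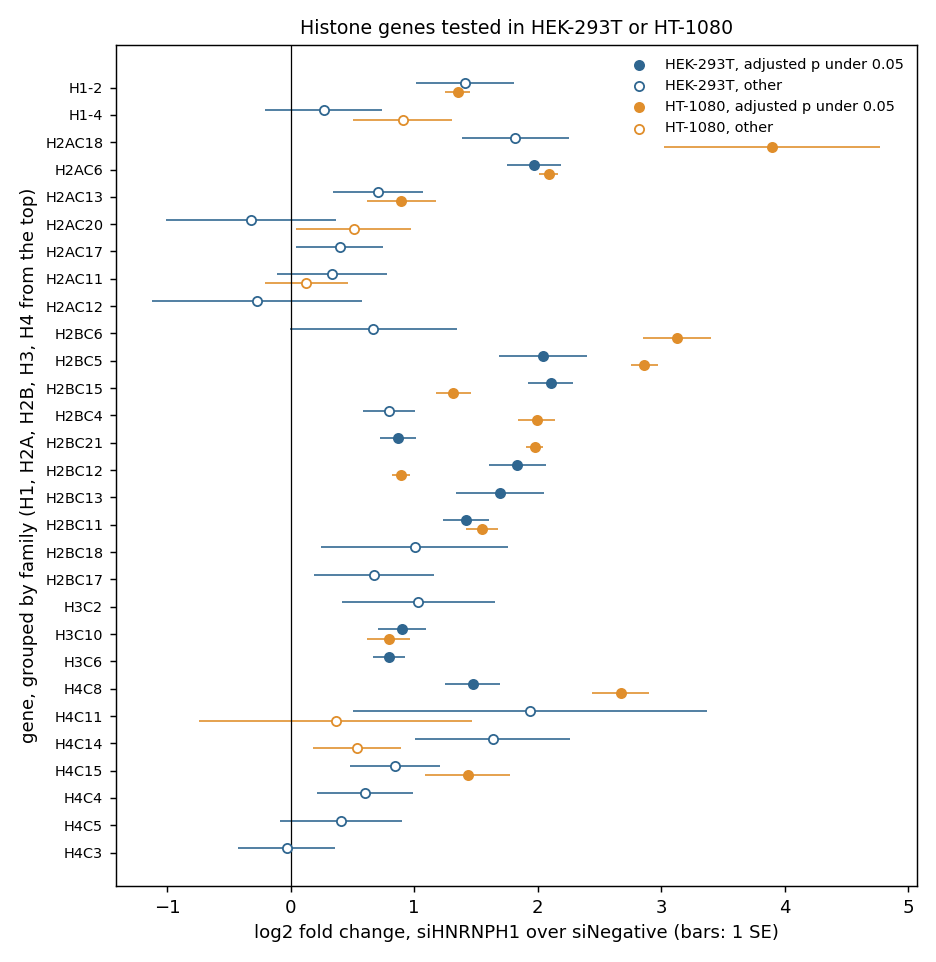
Log2 fold change (siHNRNPH1 over siNegative) with 1 SE for each histone gene tested in HEK-293T (blue) or HT-1080 (orange), grouped by family, with filled points for an adjusted p under 0.05. No filled point lies left of 0, and the filled H2B points run from 0.87 to 3.13.

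Several histone genes are near copies of one another, and which copy held the expected counts differed between libraries. H2AC18 had 98, 0 and 0 counts in the HT-1080 controls, where its copy H2AC19 had 0, 135 and 120. The pair together had 98, 135 and 120 counts in controls and 448, 591 and 560 with siHNRNPH1, a log2 fold change of 2.07 ± 0.12 (edgeR adjusted p = 3.85e-07), against 3.90 ± 0.88 for H2AC18 alone. In HEK-293T the pair had 62, 62 and 64 and then 342, 164 and 132 counts (1.82 ± 0.43, edgeR adjusted p = 0.0542). The single values of both genes are therefore uncertain.

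The H4 copies H4C14 and H4C15 also varied between libraries. H4C14 had 379, 151 and 122 counts and H4C15 292, 519 and 607 in the HEK-293T controls. Their sums were 671, 670 and 729 in controls and 1505, 1670 and 1340 after depletion, a smaller spread than that of either gene. Alone, neither passed in HEK-293T (H4C14 1.64, adjusted p = 0.168, and H4C15 0.85, adjusted p = 0.207, in edgeR), while the pair changed by 1.15 ± 0.12 there (edgeR adjusted p = 0.00772) and in HT-1080 by 1.01 ± 0.12 (edgeR adjusted p = 3.93e-05), where its sums went from 117, 177 and 150 to 322, 330 and 308. The pair H4C11 and H4C12 did not pass in either line (0.56 ± 0.50 and 0.34 ± 0.29). The sums of copies were chosen after seeing these values.

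With siNegative, 15 of the 25 histone genes tested held more of the library in HT-1080 than in HEK-293T and 1 held less, against 40.8% and 45.8% of all 19776 genes. The line, the separate table and the lower depth of HT-1080 cannot be told apart here. The 13 listed RNAs that carry no poly(A) tail also held more in HT-1080 controls, 124 to 182 CPM against 4.58 to 8.42 in HEK-293T. Of the 4 that could be tested, 3 were higher in HT-1080 (median log2 fold change 3.29, against -0.10 over all genes). Their part in the histone difference was not tested. Over genes with a mean count of 50 or more, the largest differences were those of H2AC6 (3.53 ± 0.14 on the log2 scale), H1-2 (2.54 ± 0.11), H2BC21 (2.36 ± 0.10), H3C10 (1.79 ± 0.20) and H2BC12 (1.76 ± 0.07), all with edgeR adjusted p-values of at most 1.29e-05. H3C6 went the other way. It had 306, 270 and 282 counts in HEK-293T and none in the 3 HT-1080 controls, which makes it at least 72.2-fold higher in HEK-293T where 3 counts over the HT-1080 group are taken as the floor.

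The tables list several transcripts for 13 of the histone genes, and 9 of these had a mean count of 50 or more in HEK-293T and 9 in HT-1080. H2AC6 was counted mainly on ENST00000314088.6, which took 82.1 ± 2.62% of its counts in HEK-293T controls and 81.5 ± 8.08% after depletion. In HT-1080 this transcript went from 70.9 ± 8.87% to 57.4 ± 7.21%, and ENST00000602637.1 from 24.3 ± 7.76% to 34.8 ± 6.19%. The libraries of these groups overlapped for both transcripts. The first had 73.5, 78.1 and 61.0% against 63.8, 58.7 and 49.6%, and the second 26.5, 15.8 and 30.8% against 28.2, 35.6 and 40.4%. H2BC5 had 40.0 ± 4.14% on ENST00000289316.2 in HEK-293T controls and 60.3 ± 9.90% with siHNRNPH1, without overlap, and 69.0 ± 19.7% and 73.5 ± 4.25% in HT-1080. All counts of H3C6 were on ENST00000634733.1. Shares of transcripts of 1 gene are RSEM estimates from shared reads and were not tested.

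The IsoSeq files give transcript models without counts, so they show which ends were seen and not how often, in the GRCh38.p13 coordinates of the files. Of the 61 histone genes with a strand in the promoter table, 19 had a model in at least 1 pool. The pools held 6 such models in HEK-293T with siNegative (of 64705 models in all), 17 with siHNRNPH1 (of 94847), 16 in HT-1080 with siNegative (of 72186) and 35 with siHNRNPH1 (of 68078). There is 1 pool per group, so no test was made, and the depth of the pools is unknown. Of the 74 models, 70 began within 100 bases of the annotated start, 59 ended more than 100 bases beyond the annotated gene end, and 33 were spliced.

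H2AC6 had 2 models in the HEK-293T siHNRNPH1 pool, 5 in the HT-1080 control pool and 11 in the HT-1080 siHNRNPH1 pool. All 18 were spliced from a start at position 26124172 of chromosome 6 to ends 13682 to 14423 bases beyond the RefSeq gene end. H2BC15 had 1 spliced model, in the HEK-293T siHNRNPH1 pool, with its end 14643 bases beyond, and H2BC11 1 in the HT-1080 siNegative pool, ending 6235 bases beyond. In H2BC12, all models in 3 pools were spliced, with ends 1 base short of the annotated end, or 990 to 1006 and 2365 to 2370 bases beyond it. The annotated span of H2BC12, 27138293 to 27146858 on chromosome 6, is itself that of a long form. Its models ending 1 base short were spliced and 835 bases long. H2BC21 had 1 unspliced model of 2221 bases in every pool, from 149884462 to 149886682 on the minus strand of chromosome 1, ending 3 bases short of the annotated end of that gene. H2BC4 and H2BC5 each had 1 spliced model, in the HT-1080 siHNRNPH1 pool, ending 3 bases short of an annotated end that itself lies at the end of a long form. H4C8 had 1 model of 4538 bases and H4C14 had 2, all in that pool.

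Short models near the annotated end were few. H1-2 had a model of 764 bases in both HT-1080 pools that ended 33 bases beyond the annotated gene end, and a longer one of 1740 bases in the siHNRNPH1 pool. H2AC19 had models ending 30 and 33 bases beyond, and H4C11 a model of 388 bases ending 1 base short. H1-4 had a model of 525 bases in both HT-1080 pools that stopped inside the gene, 261 bases short of its annotated end. A longer H1-4 model of 2309 bases was in the siHNRNPH1 pool. Among the 16 genes called higher in either line, 12 had a model in some pool, and 7 genes with a model were not called. No reference genome was used, so priming at internal runs of A was not checked.

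**Figure D5:**
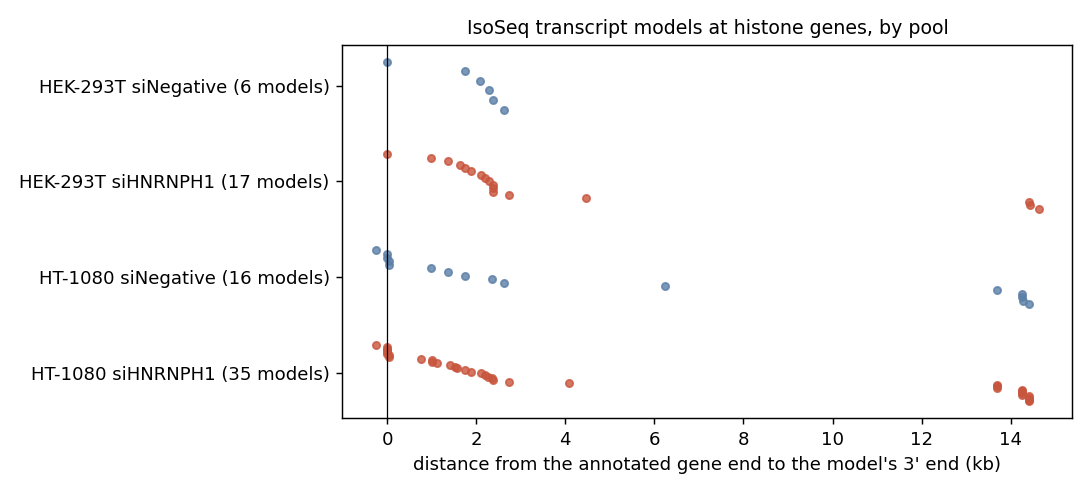
Distance in kilobases from the annotated gene end to the 3' end of each IsoSeq model assigned to a histone gene, by pool, with blue for siNegative and red for siHNRNPH1 and points spread vertically only to separate them. Apart from points near 0 and those up to 5 kilobases beyond it, a group near 14 kilobases holds the 18 spliced H2AC6 models and 1 of H2BC15, none of them from the HEK-293T siNegative pool, and 1 model of H2BC11 lies alone near 6 kilobases.

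Of the 16 genes called higher in either line, 6 (37.5%) held the octamer of the promoters shown above, and of the other 45 with a promoter entry 20 did (44.4%). Within H2B, 5 of the 14 genes with the octamer upstream of the start were called higher in a line (H2BC4, H2BC6, H2BC11, H2BC12 and H2BC21), and so were all 3 without it (H2BC5, H2BC13 and H2BC15). No match says only that the letters are not in this window. These counts are descriptions without a test.

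Other genes of the pathway were counted from fixed lists. Of 20 genes for histone transcription and 3' end processing, edgeR called none in HEK-293T (1 had an unadjusted p under 0.05, and DESeq2 called 2 higher), and in HT-1080 4 were higher and 12 lower, against 32.7% and 32.6% of all genes. SLBP, which binds the stem-loop, had 52.7, 55.0 and 51.0 CPM in HT-1080 controls and 24.8, 25.6 and 24.6 with siHNRNPH1 (log2 fold change -1.15 ± 0.05, edgeR adjusted p = 1.01e-07), and -0.20 ± 0.13 in HEK-293T. In the same list CCNE2, the gene of cyclin E2, fell by 2.61 on the log2 scale in HT-1080. The interaction test passed for both (SLBP -1.03, CCNE2 -2.44, edgeR adjusted p = 0.000816 and 0.000111). ERI1, a nuclease acting on histone mRNA ends, and CDK2 fell by 1.14 and 1.15 in HT-1080. Without the first siHNRNPH1 library, 6 of the 20 were higher and 8 lower in HEK-293T, near the 30.5% and 31.3% of all genes in that fit.

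Of 11 histone genes that are made outside replication, 2 were lower and none higher in HEK-293T, and 8 were lower and 1 higher in HT-1080, where 32.6% of all genes were lower. CENPA, the centromeric H3, had a log2 fold change of -0.56 in HEK-293T against -1.70 in HT-1080, and MACROH2A2, a macroH2A gene, was the 1 higher gene in HT-1080 at 0.81. Of 10 histone chaperones, NASP was the 1 lower gene in HEK-293T (-0.77 ± 0.13), and 8 were lower and 1 higher in HT-1080. Without the first siHNRNPH1 library of HEK-293T, 10 of the 11 histone genes and 7 of the 10 chaperones were lower there, against 31.3% of all genes.

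DNA replication genes, whose activity accompanies histone synthesis, were lower in HT-1080 in 13 of 13 cases, with a median log2 fold change of -1.88, from RRM1 at -0.88 to GINS2 at -2.30. In HEK-293T 2 of 13 were lower, RRM2 (-0.63) and CDC45 (-0.87), and the median was -0.13, and 10 were lower without its first siHNRNPH1 library, against 31.3% of all genes. The interaction passed in 13 of 13, with the lower value in HT-1080, as in 10.8% of all genes. Their part in the histone changes was not tested. Their summed level was 1604 to 1680.2 CPM in HT-1080 controls and 563 to 600.1 with siHNRNPH1.

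RNAs that carry no poly(A) tail were scarce in HEK-293T and less so in HT-1080. The 13 listed, among them RN7SK, RN7SL1 and the spliceosomal RNAs, summed to 4.58 to 8.42 CPM in HEK-293T controls, 6.16 to 11.2 with siHNRNPH1, 124 to 182 in HT-1080 controls and 86.0 to 95.5 with siHNRNPH1. The highest sum in HEK-293T was that of the first siHNRNPH1 library. Of those tested, none of 6 passed in HEK-293T by edgeR (2 at an unadjusted p under 0.05, and 2 higher by DESeq2), and 2 of 4, RN7SL1 (-0.79) and RN7SL2 (-0.93), were lower in HT-1080. In HT-1080 every siHNRNPH1 library had a lower sum of these RNAs than every control, and a higher sum of the histone genes. Their part in the histone levels was not tested.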

How the data were processed

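Expected counts per transcript were deposited by the authors in 1 table per line, estimated with RSEM on GRCh38.p13 per the submitters' processing notes; the RSEM version, the aligner, the strand setting and the RNA selection are not given in the sources used here. RSEM divides reads that fit several transcripts, so near-identical histone genes can trade counts. The IsoSeq files hold transcript models of pooled replicates, with no counts. The tables were made separately, and both lists held the same 251295 transcripts and 61906 genes.

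Transcript values of a gene were added up and rounded to whole numbers. CPM are counts scaled to a library total of 1000000. Each line was tested with edgeR 4.0.16 in R 4.3.3 (TMM scaling, filterByExpr, robust quasi-likelihood test, Benjamini-Hochberg adjustment over all genes tested, threshold 0.05), on its 6 libraries. The interaction used all 12, and the baseline the 6 siNegative libraries. Errors of fold changes are 1 SE, and of levels the SD over 3 libraries that the labels call replicates. The code was tested on simulated data.

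The members and gene lists were chosen with earlier results of these data known. Genes were named by a rule: the 3 most counted of each family, the 5 largest changes per line and direction, the 5 smallest interaction p-values and the 5 largest baseline differences per direction, all but the first with a mean count of 50 or more. H2BC6, H2BC11, H2BC13, H2AC12, H2AC13 and H2AC20 were named after their values were seen, to complete counts, as were H1-5, H2BC10 and H4C6, which had no count. IsoSeq models were assigned on the gene's strand to the gene whose annotated start was nearest. Alternatives were RLE scaling, library size alone, no count filter, DESeq2 1.42.0, the largest transcript only, a replicate block, all 12 libraries in 1 fit and leaving out each library. Summing near copies was added after seeing the data. The values of 1 listed gene are not reported here.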

Additional observations from a re-analysis of the deposited data

Results flagged for a closer look

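The change with siHNRNPH1 differed between HT-1080 and HEK-293T, by the interaction test, in 5 of 28 histone genes, 2 with the higher value in HT-1080 and 3 with the lower. Over all genes tested the shares were 8.13% and 10.8%, so the histone share was near that of all genes. The difference of log2 fold changes (HT-1080 minus HEK-293T) was 1.04 in H2BC21, 1.12 in H2BC4, -1.02 in H2BC12, -0.86 in H2BC15 and -3.55 in H3C15, the last on at most 24 counts in a library. The same test passed in 13 of the 13 DNA replication genes, all with the lower value in HT-1080.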

How the results depend on the processing

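The HT-1080 count of 14 called genes stayed between 12 and 15 over the alternatives, with at most 14 of them higher. With no count filter, without siNegative library 1 and without siHNRNPH1 library 3, 1 histone gene was called lower. The HEK-293T count of 10 was 8 to 14 under other scalings, filters, transcripts and DESeq2, 0 with a replicate block (16 genes at an unadjusted p under 0.05) and from 0 to 17 without single libraries. With the replicate block, 0 of all 19966 genes were called in HEK-293T. Same-numbered libraries had deviations correlated at 0.02, 0.06 and 0.02 in HEK-293T and at -0.06, 0.03 and 0.02 in HT-1080. In HEK-293T each library correlated best with its own number, though weakly, and in HT-1080 not every library did. Whether a replicate number marks a shared batch is not settled by these values. The interaction count of 5 was 3 with the largest transcript only, 2 with the replicate block and 2 to 9 without single libraries. The baseline count of 16 (15 higher in HT-1080 and 1 lower) was 25 with no filter (20 higher and 5 lower). Without single libraries it was 12 to 22, of which 1 to 4 were lower. With near copies summed, an alternative chosen after seeing the data, the counts were 11 in HEK-293T, 14 in HT-1080, 5 for the interaction and 18 for the baseline.

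Without H2BC12 the histone sum was 20.0 and 48.5 CPM in HEK-293T (siNegative, siHNRNPH1) and 49.2 and 167 in HT-1080. With TMM-scaled library sizes the siNegative sums were 28.8 and 87.3. Of the 16 IsoSeq models of the HT-1080 siNegative pool, 10 ended within 5000 bases of the gene end.

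Signs turned in a few named genes. The interaction of H1-2 was 0.0042 with library size only, 0.019 with the replicate block and -0.40 to 0.47 without single libraries (0.47 without HEK-293T siHNRNPH1 library 1). That of H2AC6 was -0.24 with the largest transcript only, and -0.072 to 0.22 without single libraries, below 0 without HEK-293T siNegative library 1 or siHNRNPH1 library 2 or 3. That of H3C6 was -0.0037 in DESeq2 and -0.85 to 2.73 without single libraries, below 0 without HT-1080 siHNRNPH1 library 1. H1-4 in HEK-293T was -0.0083 to 0.63, below 0 without siNegative library 2 or siHNRNPH1 library 2, and the baseline of H2AC18 was -8.44 to 1.92, the first without HT-1080 siNegative library 1, the 1 control library of that line with counts of this gene. The cause was not tested. For the 35 of 66 genes with a mean count under 10 in both lines, values are imprecise, and why they were so low was not tested.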
